A study of Caenorhabditis elegans with 2 samples.

Results

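Binding of UNC-3 on chromosome V of Caenorhabditis elegans was described from the 1067 ChIP-Seq peaks listed there, 15.5% of the 6892 peaks of the whole genome. Every interval that the peak caller placed on chromosome V was taken, and neither its height nor its width entered the choice. The chromosome itself was chosen with its low peak density already known. The 5 other nuclear chromosomes (I, II, III, IV and X) held 5824 peaks and served for comparison, and 1 further peak was on mitochondrial DNA. The list came from 1 library of chromatin immunoprecipitated with an antibody against GFP (ab290) from strain OH13990, in which GFP is fused in frame to the endogenous unc-3 gene. It was called against 1 input library of the same strain, made without antibody. Both libraries were from whole L2 worms grown at 20 °C on NGM plates with OP50 bacteria. A control immunoprecipitation from wild-type worms, which the methods of the study describe, was not analysed here. Neither library was replicated, so replicate error is unknown for all values below, and samples were not tested against each other. Peaks of 1 library are not replicates, and chromosome V alone against 5 chromosomes could not reach 0.05 by rank, since the smallest one-sided exact p would be 0.167. Intervals given below are 95% intervals and cover counting error only. Positions are on the ce10 assembly and are counted from 1.

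UNC-3 is the transcription factor of C. elegans that belongs to the family of vertebrate Ebf proteins. In motor neurons that use acetylcholine it is a terminal selector, a factor that sets the mature identity of a neuron, and it is needed for the expression of genes of acetylcholine synthesis, transport and reception, and it is made in few other neurons. Most nuclei of a whole worm therefore lack the protein, and a weak peak that comes from fewer cells with a bound site cannot be told apart from one with weaker binding in each cell. On the autosomes of C. elegans the central part is known for low recombination and for many conserved, broadly expressed genes. The arms recombine more and hold more repeats and more rapidly evolving gene families. Chromosome V is known for its many genes of nematode chemoreceptors.

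Chromosome V had the lowest peak density of the 6 nuclear chromosomes. This was known when V was chosen, so its rank and the ratios below are a description and no test. From its start to position 20924149, where its last peak ended, it held 51.0 peaks per Mb (95% Poisson interval 48.0 to 54.1), against 73.5 per Mb (71.6 to 75.4) on the 5 others together. The density of V was 0.694 times that of the others (95% interval 0.650 to 0.741), and 0.716 times (0.669 to 0.765) that of the 4 other autosomes. The chromosome nearest to it was IV, with 60.2 peaks per Mb, and the ratio of V to IV was 0.847 (0.777 to 0.923). The farthest was X, with 81.2 per Mb and a ratio of 0.628 (0.580 to 0.680). The intervals on V covered 0.660 Mb of DNA, 3.15% of its length, against 3.56% on IV, 5.10% on X and 4.49% on the 5 others together.

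The peaks were spread unevenly along V. In 41 full windows of 0.5 Mb the number of peaks ran from 4 to 52, with a median of 24 and quartiles of 14 and 36. The 156 full windows of the other chromosomes held 7 to 74 peaks, with a median of 37. Windows with fewer than 20 peaks made up 39.0% of those on V (16 of 41), against 11.5% (18 of 156) on the others. Windows with 40 peaks or more made up 17.1% on V (7 of 41), against 40.4% (63 of 156). The sparse side of the range was thus filled more on V, since the next highest shares under 20 peaks were 20.6% on IV and 20% on II. The dense side was filled less on V than on the others pooled, but IV was like V, with 17.6% (6 of 34) at 40 peaks or more. The variance of the window counts was 7.02 times their mean on V. This ratio lay between 2.49 on X and 7.73 on II elsewhere, so V lay within the range of the others. On every chromosome the counts thus varied more than the Poisson distribution assumes. The intervals of the densities and of their ratios rest on that distribution, and they are too narrow for such uneven spread.

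**Figure D1:**
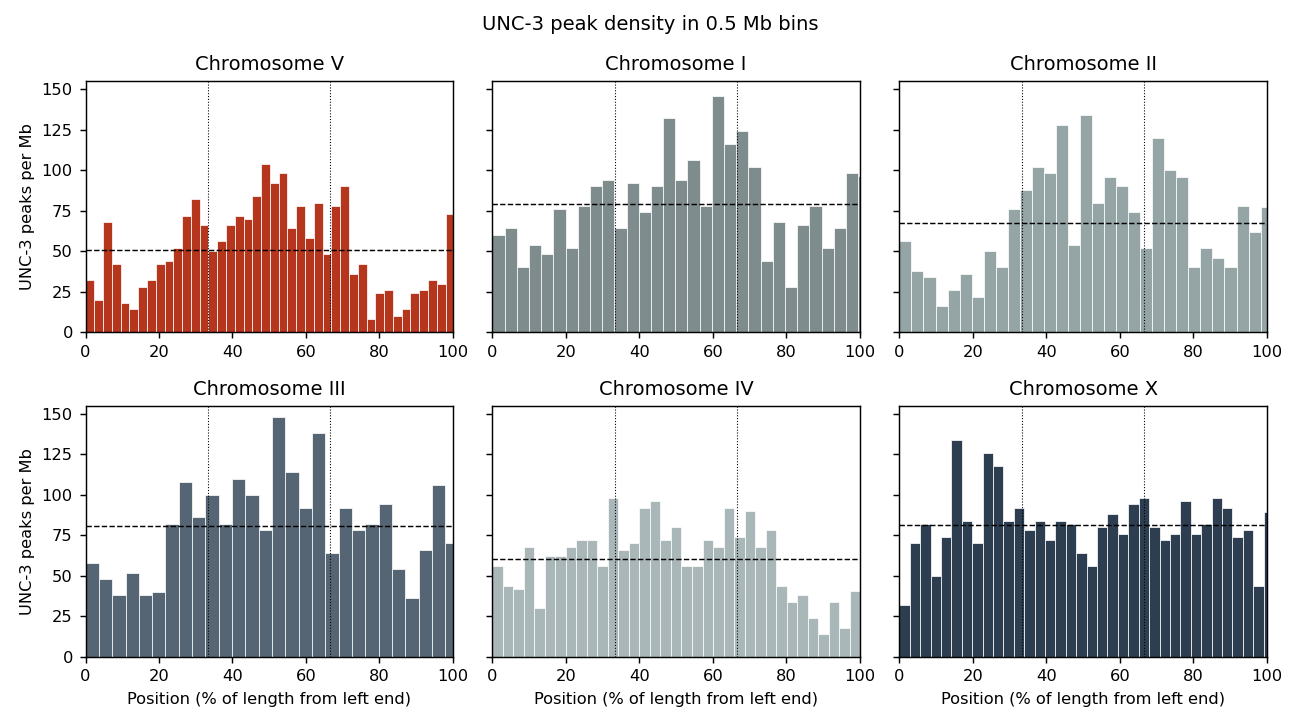
UNC-3 peaks per Mb in consecutive windows of 0.5 Mb (vertical axis) along each nuclear chromosome (horizontal axis, position as a percentage of the length up to the last peak), with V in the first panel, a dashed line at the density of the whole chromosome (51.0 on V) and dotted lines between its 3 equal parts. On V the bars are highest in the centre and lowest in the right arm, where 9 consecutive windows hold 4 to 16 peaks each.

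The 5 windows of V with the most peaks lay mainly at its centre. They were 10 to 10.5 Mb with 52 peaks (95% Poisson interval 38.8 to 68.2), 11 to 11.5 Mb with 49, 10.5 to 11 Mb with 46, 14.5 to 15.0 Mb with 45 and 9.5 to 10 Mb with 42. The 4 adjoining windows from 9.5 to 11.5 Mb held 189 peaks, 17.7% of those on V in 9.56% of its length, or 94.5 per Mb. The 5 windows with the fewest peaks were all in the arms: 16.0 to 16.5 Mb with 4 (1.09 to 10.2), 17.5 to 18.0 Mb with 5, 2.5 to 3.0 Mb with 7, 18.0 to 18.5 Mb with 7 and 2.0 to 2.5 Mb with 9. Windows with fewer than 10 peaks numbered 5 on V, against 3 on the other chromosomes together.

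Sparse windows stood side by side. The limits of the stretches that follow were drawn after the window counts had been seen, and their values are a description. From 16.0 to 20.5 Mb all 9 windows held 4 to 16 peaks, in total 97, which is 9.09% of the peaks on V in 21.5% of its length (21.6 per Mb). From 2.0 to 4.0 Mb the 4 windows held 7 to 16 peaks, in total 46 (23 per Mb). Between these lay a broad region from 5.5 to 15.0 Mb in which each of the 19 windows held 24 to 52 peaks. It held 704 peaks, 66.0% of those on V in 45.4% of its length, and its density of 74.1 per Mb was close to the 73.5 per Mb of the other 5 chromosomes taken whole. Density was not low throughout the arms. At the left end the windows from 0 to 0.5 Mb and from 0.5 to 1.0 Mb held only 16 and 10 peaks, but that from 1.0 to 1.5 Mb held 34. At the right end the last, shorter window from 20.5 Mb to the end held 31, or 73.1 per Mb.

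Fold enrichment compares the ChIP fragments over the summit of a peak (the pileup) with those the input-based background predicts there, after 1 is added to both. In the sparse stretch of the right arm the median fold enrichment was 5.33 (95% interval 4.29 to 6.03), against 6.65 (6.32 to 7.20) from 5.5 to 15.0 Mb. Peaks of 10-fold or more made up 20.6% there (20 of 97, 95% Wilson interval 13.8 to 29.7%), against 32.95% (29.6 to 36.5%) in the broad region. The expected background moved with this difference. The lowest background at any peak, 5.01 fragments, was taken as its genome-wide average. Whether the input by itself was lower at such peaks cannot be told from these values. The background was at this value at 9.28% of the peaks in the sparse stretch (9 of 97, 4.96 to 16.7%), against 61.5% (433 of 704, 57.9 to 65.0%) in the broad region. Its median in the sparse stretch was 6.22. The part of the background in the lower number and height of these peaks was not tested.

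The centre of V was denser than its arms. The chromosome was divided into 3 parts of equal length, with limits at positions 6974716 and 13949432. The centre held 510 peaks, 47.8% of those on V (95% Wilson interval 44.8 to 50.8%), the left arm 306 (28.7%, 26.0 to 31.5%) and the right arm 251 (23.5%, 21.1 to 26.2%). Their densities were 73.1 peaks per Mb (66.9 to 79.8) in the centre, 43.9 (39.1 to 49.1) in the left arm and 36.0 (31.7 to 40.7) in the right arm. The interval of the centre lay above those of both arms, while the intervals of the arms overlapped each other.

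The central share was higher on V than on any of the 5 others, but its interval overlapped those of I, II, III and IV. It was 45.6% (42.6 to 48.7%) on II, 43.5% (40.6 to 46.5%) on III and 42.2% (39.5 to 45.1%) on I. On IV it was 42.1% (39.1 to 45.1%) and on X 33.3% (30.9 to 35.7%). The density of the centre was 1.83 times the mean of both arms on V, against 1.68 on II, 1.54 on III, 1.46 on I, 1.45 on IV and 0.997 on X. All 5 autosomes thus had a centre denser than the mean of their arms, while on X the 3 parts gave a ratio close to 1. Compared with the matching parts of the 5 others pooled, V had 0.812 times the density in its centre (95% interval 0.737 to 0.894), 0.698 times in its left arm (0.616 to 0.789) and 0.533 times in its right arm (0.465 to 0.608). Each part of V was thus below the pooled value of the matching parts, with the lowest ratio in the right arm. Against single chromosomes this did not always hold, since the left arm of II, with 40.3 peaks per Mb, was below the 43.9 of the left arm of V.

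**Figure D2:**
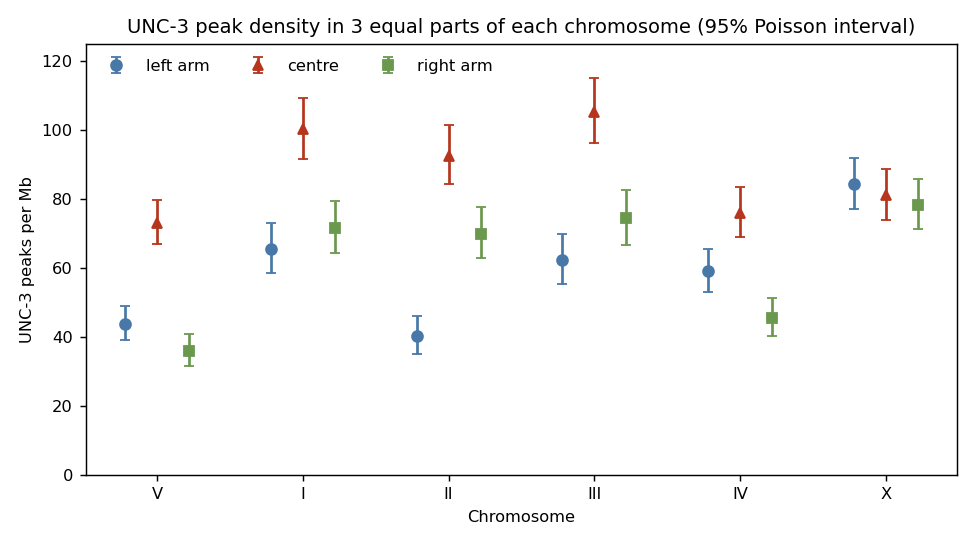
Density of UNC-3 peaks per Mb (vertical axis) in the left arm, the centre and the right arm of each nuclear chromosome (3 equal parts up to the last peak), with 95% Poisson intervals as error bars. On V the centre has 73.1 peaks per Mb, the left arm 43.9 and the right arm 36.0.

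Peaks differed less between the parts of V in strength than in number. Median fold enrichment was 6.65 (95% interval 6.30 to 7.32) in the centre, 6.12 (5.49 to 7.07) in the left arm and 5.88 (5.33 to 6.41) in the right arm. Those intervals overlap in part, and the difference between the medians was not tested. With the peaks of the 5 others pooled, the medians were 6.49 in the centres, 6.94 in the left arms and 7.103 in the right arms, though on II alone the centre was highest (6.99, against 6.65 and 6.90 in its left and right arm), as on V. Peaks of 10-fold or more were 32.5% of the peaks in the centre of V (166), 29.4% in its left arm (90) and 27.9% in its right arm (70). Counted per Mb, the strong peaks showed the same gradient as all peaks, with 23.8 in the centre, 12.9 in the left arm and 10.04 in the right arm. Median width was 531 bp in the centre, 505.5 bp in the left arm and 487 bp in the right arm. Backgrounds at the genome-wide average were found at 62.7% of the peaks in the centre (58.5 to 66.8%), 37.9% in the left arm and 35.9% in the right arm, and a like split was seen on the 5 others (68.2% in their centres, 35.1% in their left arms and 39.0% in their right arms).

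Stretches of 100 kb or more without any peak were more frequent on V than on any other chromosome. Fewer peaks per Mb by themselves mean longer distances between peaks, so these stretches are not a trait separate from the low density. The part of the density in their number was not tested. Between neighbouring peaks they numbered 29 on V, against 19 on IV, 16 on II, 6 on I, 6 on X and 3 on III, which is 13.9 per 10 Mb on V, against 10.9 on IV and 10.5 on II. At 50 kb or more the rate was not highest on V, with 46.8 per 10 Mb on V (98 stretches), against 47.2 on II (72). V carried 36.7% of the 79 stretches of 100 kb or more of the nuclear genome on 20.9% of its length. Together those on V took up 5.13 Mb, 24.5% of the length of V, against 3.29% on III and 15.4% on IV at the ends of the range of the others. Their median length was 149.1 kb on V and 129.0 kb on the others. By part, 7 lay in the centre (0.909 Mb), 9 in the left arm (1.75 Mb) and 13 in the right arm (2.48 Mb).

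The longest stretch on V ran from position 15874080 to 16350822, 476.7 kb, and was bounded by peaks of 5.49-fold on its left and 11.5-fold on its right. The second, from 2697486 to 3099012 (401.5 kb), lay between peaks of 3.69-fold and 2.49-fold. The third, from 17519607 to 17857701 (338.1 kb), lay between peaks of 18.8-fold and 11.1-fold. The peaks beside these stretches were thus of any height, from weak to strong. The fourth ran from 2281991 to 2600479 (318.5 kb, flanks of 7.65-fold and 13.97-fold) and the last of the 5 from 18115395 to 18400354 (285.0 kb, flanks of 4.29-fold and 2.83-fold). These 5 took up 8.70% of the chromosome. The second and the fourth lay side by side in the left arm, and the other 3 in the right arm. Of the 10 longest stretches of the genome 6 were on V, and the longest on any other chromosome was 286.8 kb, on IV. Stretches of 200 kb or more numbered 5 on V and 2 on the 5 others together. Whether unique reads could be mapped in these stretches was not tested.

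Density was also compared outside the long stretches. With the stretches of 100 kb or more left out, the remaining length held 67.6 peaks per Mb on V, against 71.1 on IV and 84.7 on X at the ends of the range of the others. The length left out was chosen for holding no peak, so leaving it out must raise the density, and most where such length is most, and these values are a description. With the stretches of 50 kb or more left out, which numbered 98 and took up 48.5% of V, the density was 98.9 per Mb on V, which lay within the range of the others (95.7 on IV to 109.6 on II). With only those of 200 kb or more left out it was 55.9 per Mb on V, against 61.2 to 81.2. Within V, leaving out the stretches of 100 kb or more gave 84.1 peaks per Mb in the centre, 58.5 in the left arm and 55.8 in the right arm.

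**Figure D3:**
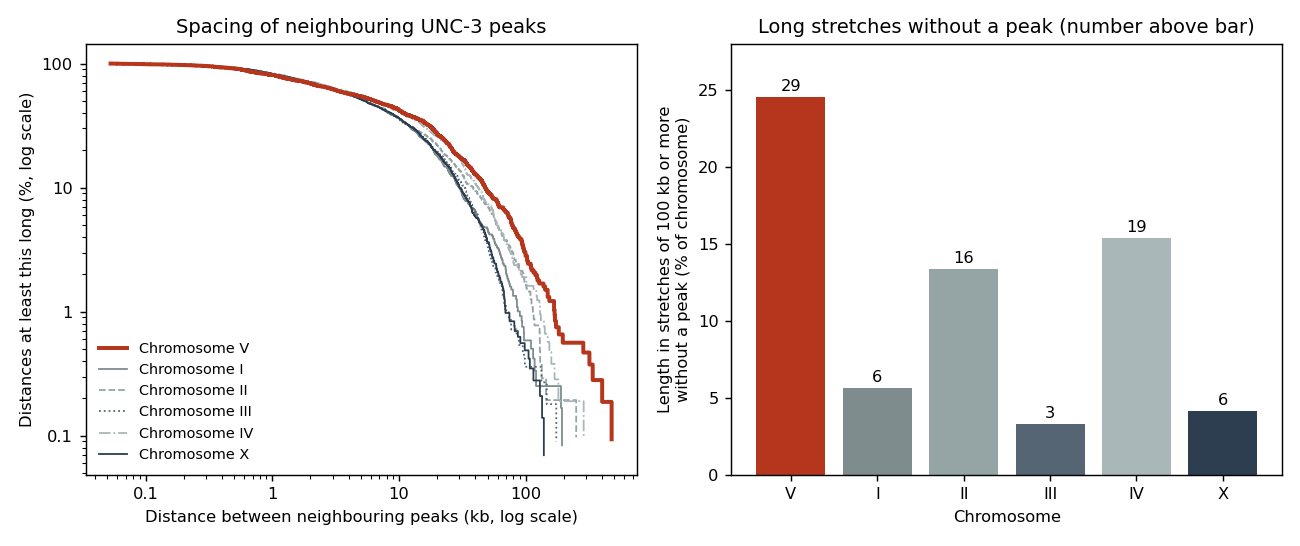
Left, share of the distances between neighbouring peaks (percent, log scale) that are at least as long as the distance on the horizontal axis (kb, edge to edge, log scale), where the curve of V runs with the others at short distances and reaches farthest, to 476.7 kb. Right, percentage of each chromosome in stretches of 100 kb or more without a peak, with the number of stretches above each bar (29 on V).

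Where peaks were present on V, they lay about as close to each other as elsewhere. The distance to the nearest peak had a median of 2104 bp on V (95% interval 1863 to 2369 bp), within the range of the others, 1927 bp on II to 2332 bp on IV. Its lower quartile was 666 bp on V, slightly below the 679 to 829.5 bp of the others. Its upper quartile was 7407 bp on V, above the 5636 to 7281 bp of the others. From each peak to the next along the chromosome the median was 6458 bp on V, against 5322 to 6320 bp, and the 90th percentile was 47655 bp on V, against 29661 to 41684 bp. Short distances were therefore like those of the other chromosomes or slightly shorter, and long ones were longer. The closest pair on V was 53 bp apart, and no intervals overlapped.

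Clustering of peaks at short range was much the same on V as elsewhere. Another peak lay within 1 kb of 353 peaks, 33.1% (95% Wilson interval 30.3 to 36.0%), against a background of 31.6% on the 5 other chromosomes, whose own values ran from 29.5% on IV to 34.8% on II. The share on V was thus near the background. Peaks lie closer on a denser chromosome by its density alone, and V was the least dense of the 6. The shares were not corrected for density. It depended on the distance used, with 16.2% of the peaks of V having another within 500 bp and 11.6% having one within 1 kb when measured between summits. Within 1 kb between edges it was 36.9% (32.8 to 41.1%) in the centre, 31.4% in the left arm and 27.5% (22.3 to 33.3%) in the right arm. Joining peaks within 1 kb of each other gave 863 groups on V, of which 714 were single peaks, 107 were pairs, 32 held 3 peaks, 7 held 4 and 3 held 5. Counted as groups, V still had the lowest density, 41.2 per Mb, against 50.1 to 67.1 per Mb on the others. Single peaks had a median fold enrichment of 5.99 (5.66 to 6.49), peaks in pairs 7.65 (6.36 to 8.76) and peaks in groups of 3 or more 7.15 (5.99 to 8.98).

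The groups on V differed in kind. The group from 1149730 to 1155163 held 5 peaks of 3.92-fold, 4.92-fold, 55.5-fold, 9.37-fold and 3.16-fold in order of position, which is 1 very strong peak with weaker ones on both sides. The group from 10715297 to 10723972 held 5 peaks of 32.8-fold, 17.2-fold, 10.7-fold, 21.0-fold and 3.34-fold, most of them strong. In the group from 3434677 to 3441073, inside the sparse stretch of the left arm, all 5 peaks were weak (3.02-fold to 3.41-fold) and stood on backgrounds of 6.45 to 8.97 fragments. Among the groups of 4, the first by position, from 5845219 to 5852238, alternated between strong and weak (14.8-fold, 5.99-fold, 20.6-fold and 5.26-fold). The next, from 6340914 to 6345375, had 13.2-fold, 12.9-fold, 2.88-fold and 5.80-fold. Across the 204 pairs of neighbours within 1 kb on V the fold enrichments differed by a median of 1.01 on the log2 scale, and their correlation was weak (r = 0.10, as a description). Such neighbours share library and local background.

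Solitary peaks were more frequent on V than on the 5 others together, but II and IV were near it. A lower density by itself makes solitary peaks more frequent, and its part here was not tested. No other peak lay within 50 kb of 20 peaks on V, 1.87% (95% Wilson interval 1.22 to 2.88%), against 36 peaks or 0.618% (0.447 to 0.855%) on the 5 others. The share was 1.36% (0.810 to 2.26%) on II and 1.14% (0.653 to 1.98%) on IV, and both intervals overlapped that of V. Per Mb there were 0.956 on V and 0.917 on II. Of the 20 on V, 13 were in the right arm, 7 in the left arm and 0 in the centre. They were of mixed strength, with a median of 5.13-fold (3.80 to 12.1) and 7 of the 20 at 10-fold or more (35.0%, 18.1 to 56.7%), against 5 of 36 (13.9%, 6.08 to 28.7%) among those of the others and 30.6% among all peaks of V. The farthest from any other was a peak of 5.72-fold from 16965596 to 16966037, whose nearest neighbour was 149190 bp away. A stronger one, 23.8-fold with a pileup of 161, stood from 20005405 to 20006423 with no other peak for 84285 bp. It was the strongest peak of the stretch from 16.0 to 20.5 Mb.

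The strength of the peaks on V differed little from that elsewhere. The median fold enrichment was 6.32 (95% interval 5.99 to 6.79) on V, with quartiles of 3.99 and 11.97 and a range of 1.92 to 58.5. It was the lowest of the 6 chromosomes, but close to that of IV (6.49), and the 5 others together had 6.82 (6.65 to 6.99). Peaks of 10-fold or more numbered 326 on V, 30.6% (27.9 to 33.4%), against a background of 33.1% on the 5 others. Peaks of 20-fold or more were 11.6% on V (124) and 11.3% on the others, so the strong end was alike. At the weak end, peaks under 3-fold were 6.37% on V (68, 5.06 to 8.001%), the highest share of the 6 chromosomes. On the others together they were 4.55% (4.04 to 5.12%). The intervals of X (5.02%, 4.01 to 6.28%) and IV (4.94%, 3.79 to 6.42%) overlapped that of V. Per Mb there were 3.25 such peaks on V and 4.08 on X. The pileup had a median of 42 fragments on V (39 to 45), with quartiles of 26 and 77.5 and a range of 14 to 507, against a median of 44 on the others. The median −log10 q-value, the significance given by the peak caller after correction for multiple tests, was 20.2 on V, against 21.1 to 23.4 on the others.

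Chromosome V held several of the strongest peaks of the genome. Of the 10 peaks of highest fold enrichment 4 were on V, of the first 50 there were 8, of the first 100 there were 19 and of the first 500 there were 81, while V held 15.5% of all peaks. The share on V was high in the first 10 and 16 to 19% further down, and 10 peaks are few.

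The strongest peak on V lay from 7259092 to 7260335, just inside the centre, with 507 fragments over its summit on a background of 7.68, which is 58.5-fold, the second highest value of the genome. The next was from 1150931 to 1152351 in the left arm, inside the first group of 5 peaks described above, with 349 fragments on 5.31 (55.5-fold, the third highest of the genome). The peak from 12464814 to 12466065 in the centre had 328 fragments on 5.01 (54.7-fold), and that from 4507081 to 4508552 in the left arm 307 on 5.01 (51.2-fold). These 4 stood apart from the rest of V, since the fifth, from 9546330 to 9547424, was at 42.9-fold with a pileup of 257. The sixth to the tenth were close together. They lay from 11443234 to 11444825 (40.8-fold, pileup 244), from 6267173 to 6268021 (40.4-fold, pileup 243), from 4218015 to 4218869 (39.9-fold, pileup 261), from 9730599 to 9732358 (39.4-fold, pileup 236) and from 1943190 to 1944208 (39.1-fold, pileup 234). Of the 10, 5 were in the centre, 5 in the left arm and 0 in the right arm, whose strongest peak, from 14038295 to 14039227 at 37.3-fold, came eleventh on V. Their widths ran from 849 to 1760 bp, 7 of them had another peak within 1 kb, and their backgrounds were 5.01 to 7.68 fragments.

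Peak widths on V were like those of the other chromosomes. The median was 513 bp (95% interval 498 to 534 bp), with quartiles of 396 and 708.5 bp, against medians of 508 to 548 bp elsewhere. The narrowest intervals were 291 bp, a width shared by 27 peaks on V. Stronger peaks were wider, with medians of 351, 434, 553.5 and 819 bp from the weakest to the strongest of 4 groups of nearly equal size by fold enrichment. The rank correlation of width and fold enrichment was 0.77 on V and 0.77 to 0.81 on the others, as a description over peaks of 1 library. The summit lay a median of 30 bp from the middle of the interval on V and 26 bp on the others.

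Very wide peaks were rare on V and varied in strength. Intervals wider than 2000 bp numbered 13 on V (1.22%), against 55 (0.944%) on the others. The widest, from 10605892 to 10611126, was 5235 bp but only 2.39-fold, with 71 fragments on a background of 29.1. The second, from 9086576 to 9091210 (4635 bp), was 27.1-fold on the average background of 5.01, and the third, from 19519592 to 19523266 (3675 bp), was 18.8-fold on 5.70. The next, from 17128671 to 17132182 (3512 bp, 8.80-fold) and from 17123354 to 17126774 (3421 bp, 10.9-fold), lay close to each other on backgrounds of 25.9 and 21.5 fragments. Wide intervals were thus found both on average and on raised backgrounds.

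Raised backgrounds were somewhat more frequent on V than on the 5 others together, but IV was near it. The background was at the genome-wide average at 526 peaks, 49.3% (46.3 to 52.3%), against 49.8% on the others. At least 2 times the average was expected at 36 peaks on V, 3.37% (2.45 to 4.64%), against 116 peaks or 1.99% (1.66 to 2.38%) on the others. On IV the share was 2.94% (2.08 to 4.15%), and per Mb there were 1.77 such peaks on IV and 1.72 on V. Of the 36 on V, 9 were in the centre, 8 in the left arm and 19 in the right arm. The stretch from 16.0 to 20.5 Mb held 15 of the 36, of which 7 were at a single locus described below. The median fold enrichment of the 36 was 2.90, and they made up 19 of the 68 peaks of V under 3-fold. Over the 41 windows, those with more peaks had lower median backgrounds (Spearman's rho −0.81, Pearson's r −0.30, as a description of windows of 1 library).

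**Figure D4:**
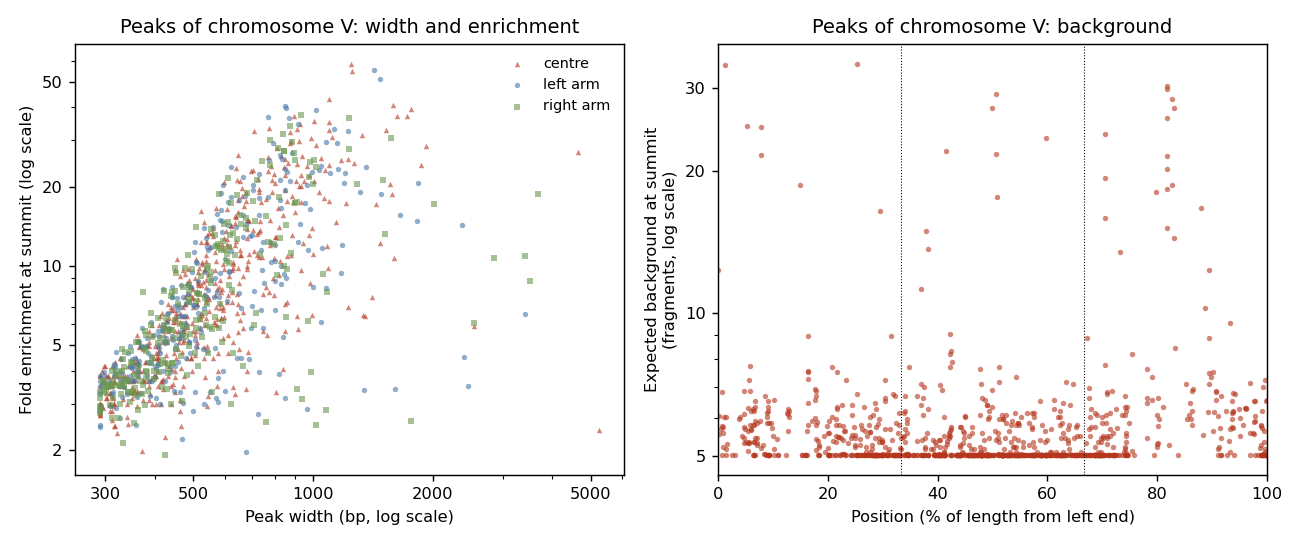
Left, fold enrichment at the summit (vertical axis, log scale) of the 1067 peaks of V against peak width in bp (horizontal axis, log scale), by part of the chromosome, where stronger peaks are wider apart from a few wide ones such as that of 5235 bp at 2.39-fold. Right, expected background in fragments (log scale) against position as a percentage of the length, with dotted lines at the limits of the 3 parts, where 526 peaks lie on the average of 5.01 and are thin in the right arm.

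Fragments accumulated on a raised background at a locus of the right arm that was singled out after its values were seen. There 7 peaks lay from 17115228 to 17132182 and covered 78.6% of 16955 bp. Their folds were 3.77 to 13.2 and their pileups 60 to 406, on backgrounds of 15.2 to 30.2 fragments, which is 3.03 to 6.03 times the genome-wide average. They included 5 of the 34 peaks of V with a pileup of 200 or more. No other peak lay within 149.2 kb on their left or 78.1 kb on their right. The sequence at this locus, its copy number in strain OH13990 and the part of either in the pileup were not tested.

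The number of peaks on V was low also for the number of its genes. In the WBcel235 gene table V had 4995 protein-coding genes, and 21.4 peaks per 100 genes, against 29.9 on II and 52.5 on X at the ends of the range of the others and 38.9 on the 5 together. Genes named as members of chemoreceptor families numbered 887 on V, 17.8% of its protein-coding genes and 67.9% of all such genes of the nuclear genome. These genes encode receptors thought to sense odours and tastes, mostly in sensory neurons of the head and tail. With these genes left out of the gene count but every peak kept, V had 26.0 peaks per 100 genes, against 31.5 on II and 53.2 on X. The part of these genes in the low number of peaks was not tested. Peaks were not assigned to genes, because the gene table is of another assembly than the peaks, and whether the sparse stretches hold these families was not tested.

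The outermost peaks of V were weak to moderate. The first interval began at position 1 and ended at 412, at 3.004-fold with 39 fragments on a raised background of 12.3. The last ran from 20923776 to 20924149, at 7.98-fold with 47 fragments on the average background of 5.01. The 31 peaks of the last, shorter window had a median fold enrichment of 7.98, above the 5.33 of the sparse stretch beside it.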

How the data were processed

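ChIP-Seq was performed by the authors on 1 library of whole L2 worms with 1 input library. The authors aligned the reads to ce10 with bowtie2, used those that mapped uniquely, and ran MACS2 against the input. Their q-value cutoff is 0.05 in the results and 0.005 in the methods (versions not given in the sources used here). On V the largest q-value was 0.00601. For each peak they deposited the interval, the summit, the fold enrichment over the input-based background, and the p-value and q-value as −log10. The deposited score is 10 times the −log10 q-value cut to a whole number (at 6890 of 6892 peaks) and was not used. The input served only inside these values and was not analysed here by itself. No per-library read total was given, and depth was read from pileups.

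All intervals on chromosome V were taken with no further filter. Lengths run to the last peak end, a peak is placed by its midpoint, and distances are between edges. Pileup and background were solved from fold enrichment and p-value, with a pseudocount of 1 as in MACS2 and a tolerance of 0.001 in −log10 p, for 1067 peaks of V and 6891 of 6892 in all. The lowest solved background, 5.01, was taken as the genome-wide average, and a background within 0.5% of it counted as that average. Named were the 10 peaks of highest fold, the 5 widest, the 5 densest and 5 sparsest windows, the 5 longest stretches without a peak, the 5 longest groups within 1 kb and the first and last peak; other regions named were chosen after their values were seen. The members and lists were chosen with earlier results of these data known. Shares have Wilson intervals, densities exact Poisson intervals and medians order-statistic intervals. Alternatives were q-value thresholds of 1e-5 and 1e-10, other windows, parts, distances and fold thresholds, and, added after seeing the data, a threshold of 0.005, densities without long stretches and gene counts without chemoreceptor families. Python 3.11.15, numpy 2.4.6, scipy 1.17.1, pandas 2.3.3 and matplotlib 3.10.9 were used, and scripts were tested on simulated data. The gene table (WBcel235) served for counts of genes per chromosome. No ce10 sequence or annotation was used here, so sequences, motifs and target genes were not analysed.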

Additional observations from a re-analysis of the deposited data

How the results depend on the processing

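Of 44 alternative values, 27 stayed within the counting error of the value reported (or, for counts, within 1.5 times of it), and 17 moved beyond it. The 27 include 11 from the threshold of 0.005, which kept 1066 of 1067 peaks and could hardly change a value. The 17 include other distances, parts and fold thresholds, which measure another quantity and had to differ. The tally is therefore no measure of how firm the results are. Most of the 44 are values of V alone, which have no direction. With q at or below 1e-5 the density on V was 46.7 peaks per Mb, the median fold enrichment 6.99 and the median width 537 bp. With q at or below 1e-10 the density was 35.6 per Mb, the median fold 8.98, the median width 595 bp, the number of stretches without a peak of 100 kb or more 45, the share with another peak within 1 kb 28.1% (24.3 to 28.6% on the others) and the share at 10-fold or more 43.8% (42.5 to 48.2% on the others). V had the lowest density of the 6 chromosomes at both thresholds (IV, the next, had 55.6 and 43.3), but at 1e-10 its median fold enrichment and its share at 10-fold or more were above those of IV (8.65 and 42.5%) and II (8.96 and 43.6%), so V no longer had the lowest median. A centre made of the middle 2 of 4 equal parts held 70.7% of the peaks. Stretches without a peak numbered 98 at 50 kb or more and 5 at 200 kb or more. Another peak lay within 500 bp of 16.2%, within 2 kb of 48.4%, and within 1 kb between summits of 11.6%. The share at 5-fold or more was 62.7% on V and 65.5% on the others, and at 20-fold or more 11.6% on V and 11.3% on the others. The threshold of 0.005, added after seeing the data, left 1066 peaks on V.

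No paired analysis was possible because there was a single library of each kind. Intervals cover counting error only, and copies made by PCR could not be separated from independent fragments. Weaker binding than the cutoff allows is not in the list, so a stretch without a peak is not shown to be unbound. Mappability, copy number, open chromatin and binding of the antibody to other proteins were not tested.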
